A study of Homo sapiens with 9 samples.

Results

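HOX genes encode the homeodomain transcription factors that give cells their position along the head-to-tail axis of the embryo. Human cells carry them in clusters A, B, C and D, in which the genes are numbered by paralog group from the 3′ end to the 5′ end. The members described here are all probe sets that the platform annotation gives to exactly 1 gene whose symbol is HOX, a cluster letter and a paralog number, with or without an antisense suffix. They number 46 of the 54613 probe sets tested and belong to 29 of the 19775 genes with a probe set of their own, 1 of the 29 being an antisense gene. Cluster B holds 19 of the probe sets (10 genes), cluster D 15 (8 genes), cluster C 9 (9 genes) and cluster A 3 (2 genes, HOXA2 and HOXA11-AS). Several probe sets measure each of 14 genes and 1 probe set each of the other 15. Another 4 probe sets, given to a HOX gene together with other genes, were not used, and HOX genes outside the 29 were not analysed here.

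The cells were WA09, an established human embryonic stem cell line, between passages 32 and 38. There were 3 arrays for each of 3 conditions. Pluripotent cells were untreated. Damaged cells received DOX (doxorubicin, which breaks DNA by trapping topoisomerase II) for 5 h, at a dose that the labels do not give. Differentiating cells were kept for 2 days with retinoic acid (RA, 1 µM) in medium lacking added FGF, so RA and the loss of that growth factor cannot be told apart. The protocols name cultures on irradiated mouse feeder cells and feeder-free cultures, without saying which gave which array. Whether the arrays of a condition are separate cultures is not stated, and the p-values therefore measure no more than the scatter of the arrays, part or all of which may be technical.

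In the embryo HOX genes are switched on in the order in which they lie, 3′ genes first, and RA is a well known inducer of the 3′ end. RA binds RAR and RXR receptors at response elements built from repeats of AGGTCA, and HOX proteins bind DNA with PBX and MEIS cofactors. Before induction, Polycomb complexes hold the clusters silent in stem cells.

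The promoter windows of 4 genes, 250 bases up to the annotated start on the gene's strand (RefSeq, GRCh38.p14), are shown because they belong to the 3′ genes and the antisense gene described below or to a start that HOX genes share. Capitals mark matches to TGATNNAT on either strand, the core of elements bound by PBX and HOX proteins together. HOXB1 (chr17:48531012-48531261, minus strand) and HOXA2 (chr7:27102684-27102933, minus strand) are 3′ genes. HOXB-AS1 (chr17:48544101-48544350, plus strand) is an antisense RNA gene that overlaps HOXB2 and HOXB3, and its window lies inside HOXB2. HOXC4 (chr12:54016638-54016887, plus strand) has the same annotated start as HOXC5, and both overlap HOXC6.
HOXB1: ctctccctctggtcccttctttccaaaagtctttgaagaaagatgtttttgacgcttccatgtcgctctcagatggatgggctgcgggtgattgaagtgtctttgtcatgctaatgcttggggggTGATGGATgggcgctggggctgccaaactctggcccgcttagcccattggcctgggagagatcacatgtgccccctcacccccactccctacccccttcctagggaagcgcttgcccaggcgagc
HOXA2: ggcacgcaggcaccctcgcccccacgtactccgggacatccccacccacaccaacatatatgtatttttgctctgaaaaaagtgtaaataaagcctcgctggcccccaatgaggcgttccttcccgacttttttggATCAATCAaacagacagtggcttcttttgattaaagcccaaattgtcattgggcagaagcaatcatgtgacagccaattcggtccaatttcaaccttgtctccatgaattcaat
HOXB-AS1: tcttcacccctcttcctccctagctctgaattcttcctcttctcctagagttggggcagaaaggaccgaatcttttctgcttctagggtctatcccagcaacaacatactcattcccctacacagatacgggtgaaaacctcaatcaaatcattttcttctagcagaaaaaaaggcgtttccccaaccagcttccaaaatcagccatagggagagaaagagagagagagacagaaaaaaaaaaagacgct
HOXC4 and HOXC5: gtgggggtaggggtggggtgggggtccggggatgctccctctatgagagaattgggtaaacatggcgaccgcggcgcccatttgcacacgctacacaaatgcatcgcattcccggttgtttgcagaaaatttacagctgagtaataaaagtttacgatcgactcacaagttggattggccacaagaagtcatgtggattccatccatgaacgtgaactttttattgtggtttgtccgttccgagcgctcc

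Of the 29 genes 12 had a window in the RefSeq table, and HOXB2, HOXB6, HOXB7 and HOXC6, described below, had none. Members are counted by gene, HOXC4 and HOXC5 sharing a window, whereas the windows of all genes are distinct ones. TGATNNAT lay in the windows of 3 of the 12 genes and in 6.49% of all 34943 windows of that length. The 3 were HOXB1 (bases −125 to −118 from the start), HOXA2 (−114 to −107) and HOXD11 (−67 to −60). AGGTCA lay in 0 of the 12 and in 12.1% of all windows. Its direct repeats AGGTCANNAGGTCA and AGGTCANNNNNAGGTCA, the forms with spacers that RAR and RXR bind, lay in 0 of the 12 and in 1 of all 34943 windows each. A p53 half-site lay in 1 of the 12, that of HOXD4, and in 5.58% of all windows. A match is a description of letters in a window, and its absence says nothing of more distant elements.

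Most HOX probe sets were dim in every condition. As a reference, 107 probe sets of olfactory receptor genes, a family that stem cells are not known to use, were read on the same arrays. Their 95th percentile, on the log2 intensity scale of all levels given here, was 5.02 in pluripotent, 4.96 in damaged and 4.95 in differentiating cells. This is a reference level and not a detection call, because probe sets differ in how strongly they bind their target. In pluripotent cells 4 of the 46 HOX probe sets lay above it, and in damaged and in differentiating cells 7 each. Over all conditions 8 lay above it at least once, and 38 never did. The 8 were 205453_at for HOXB2, 208414_s_at for HOXB3, 205601_s_at for HOXB5, 206194_at for HOXC4, 206739_at for HOXC5, 206858_s_at for HOXC6, 221350_at for HOXC8 and 206745_at for HOXC11. The median HOX level was 3.96, 3.93 and 3.91 in pluripotent, damaged and differentiating cells, against 4.64, 4.67 and 4.65 over all probe sets and 3.63, 3.72 and 3.65 over the olfactory receptor probe sets. At such levels RMA compresses fold changes, and a fold against a level within the olfactory receptor range may be a lower bound. In whole-culture RNA, a few cells with much of a transcript and many cells with little cannot be told apart.

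**Figure D1:**
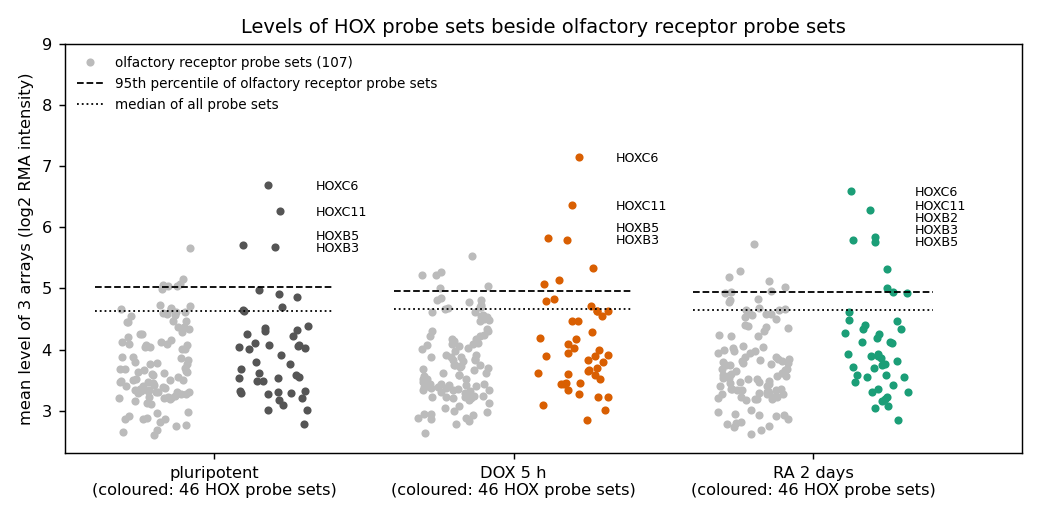
Mean level (log2 RMA intensity, 3 arrays) of each of the 46 HOX probe sets, coloured, beside the 107 olfactory receptor probe sets, grey, in pluripotent cells, after DOX for 5 h and after RA for 2 days. Dashed lines mark the 95th percentile of the olfactory receptor probe sets and dotted lines the median of all probe sets, and most HOX probe sets lie below both, with HOXC6 and HOXC11 the topmost in every condition.

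Of these 8, the probe sets of HOXB2 and HOXC6 passed a test of change, described below, and the others did not. HOXC11, a posterior gene of limb and trunk patterning, was read at 6.26, 6.37 and 6.28 in pluripotent, damaged and differentiating cells, and HOXB5 (205601_s_at) at 5.70, 5.83 and 5.77. Another probe set of HOXB5, 205600_x_at, read 4.08, 3.99 and 3.93, so the probe sets of that gene place it on different sides of the reference. HOXB3 is split in the same way: 208414_s_at was at 5.52, 5.81 and 5.70 in the 3 pluripotent arrays, at 5.78, 5.87 and 5.75 in the damaged arrays and at 5.78, 5.75 and 5.83 in the differentiating arrays. Its groups overlap, whereas 228904_at stayed between 3.30 and 3.76 on all arrays. HOXC4 was at 4.97, 4.72 and 5.02 in pluripotent cells, at 5.00, 5.24 and 5.17 after DOX and at 5.11, 4.86 and 5.04 after RA, close to the reference and overlapping in every pair of conditions. HOXC5 was at 5.09, 5.19 and 4.63 in pluripotent cells, at 5.17, 5.39 and 5.45 after DOX and at 5.27, 5.37 and 5.34 after RA. Pluripotent array 3 is the low one.

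All changes below are differences of log2 levels, given with limma's standard error. The adjusted p-values come from limma, with Benjamini-Hochberg adjustment across the 54613 probe sets, and a probe set was called when its value was under 0.05. The comparisons of RA and of DOX with pluripotent cells use the same pluripotent arrays. The first comparison asks which HOX genes RA changed. HOXB1 and HOXB2, at the 3′ end of cluster B, rose, and they were the only HOX probe sets called. RA raised 2 of 46 (4.35%), where 1.47% of all probe sets were called higher, and lowered 0 of 46, where 1.48% of all were called lower, and 0 HOX probe sets were lower at an unadjusted p under 0.05 in limma. Over all probe sets 802 were called higher and 809 lower, and the higher count was 531 or 495 without differentiating array 1 or 2. The lower count was 501 or 518 without pluripotent array 1 or 2 and 512 without differentiating array 1. HOXB1 and HOXB2 were called higher when any 1 of the 6 compared arrays was left out.

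HOXB2, which patterns the hindbrain and cranial nerves, had 1 probe set. It was at 4.31, 4.31 and 4.04 in pluripotent cells, at 4.62, 4.97 and 4.78 after DOX and at 5.87, 6.21 and 5.42 after RA. The groups do not overlap, and the mean lies above the olfactory receptor reference only after RA. RA raised the mean from 4.22 ± 0.15 to 5.83 ± 0.39 (SD, n = 3 arrays each), a change of 1.61 ± 0.17 or 3.06-fold (95% interval 1.23 to 2.00 on the log2 scale, adjusted p = 3.8e-04). Among all probe sets its place moved from the 41.8th percentile to the 66.4th. It was called in all 17 alternative settings, with changes of 1.43 to 1.82.

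HOXB1, which specifies the fourth rhombomere of the hindbrain, rose on the probe set 243811_at. That probe set was at 3.30, 3.36 and 3.32 in pluripotent cells, at 3.42, 3.51 and 3.38 after DOX and at 4.37, 4.53 and 4.08 after RA. Every RA array is above every other array, yet all 9 lie below the olfactory receptor reference. The mean went from 3.33 ± 0.03 to 4.33 ± 0.23 (SD, n = 3 arrays each), a change of 1.00 ± 0.11 or 2.00-fold (95% interval 0.77 to 1.24, adjusted p = 3.4e-04). The other probe set of the gene, 208224_at, was at 4.80, 4.54 and 4.74 in pluripotent cells and at 4.87, 5.06 and 4.89 after RA. Its change was 0.25 ± 0.09 and did not pass (adjusted p = 0.25), although the RA arrays again lay above the pluripotent ones. With each gene read from its brightest probe set, HOXB1 rests on 208224_at, so that 1 HOX gene, HOXB2, was called.

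**Figure D2:**
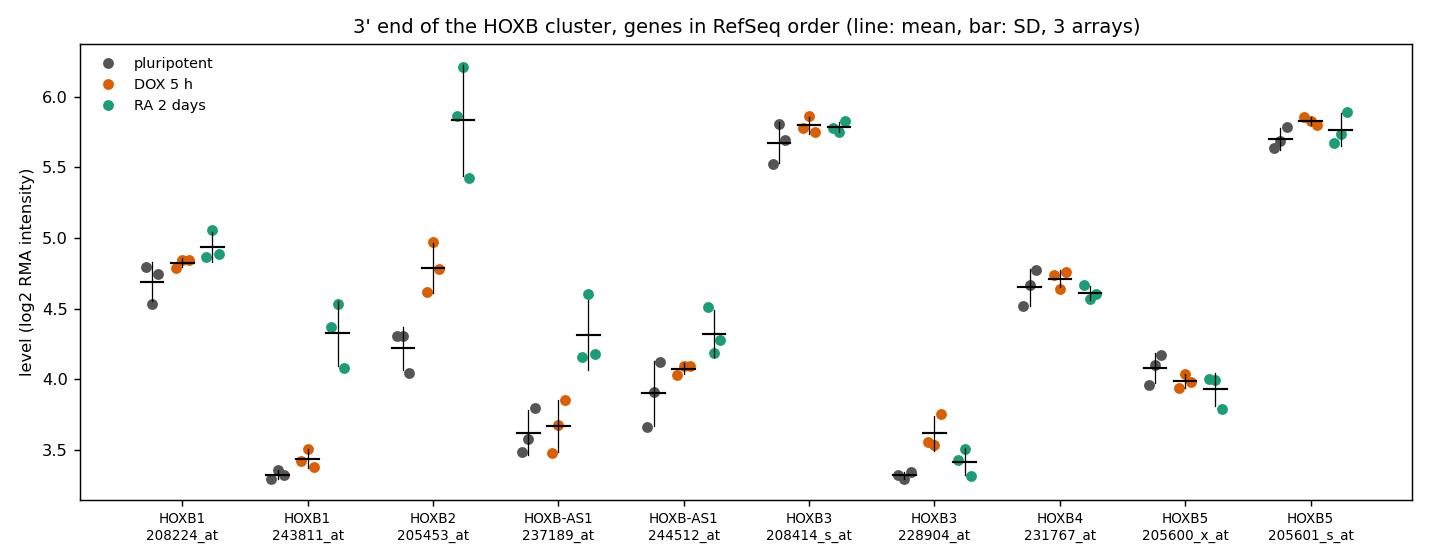
Level on each array (log2 RMA intensity) of probe sets at the 3′ end of cluster B from HOXB1 to HOXB5, in their RefSeq order and grouped by condition, with lines for the mean and the SD of 3 arrays. The RA arrays of HOXB2 (5.42 to 6.21) and of HOXB1 243811_at (4.08 to 4.53) lie above all pluripotent and DOX arrays of the same probe set.

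HOXB-AS1, the antisense RNA gene whose window is printed above, is no member and was read for its position. Its probe set 237189_at was at 3.49, 3.58 and 3.80 in pluripotent cells, at 3.48, 3.68 and 3.85 after DOX and at 4.16, 4.60 and 4.18 after RA. The RA arrays are the highest, and the pluripotent and DOX arrays are mixed. RA raised it by 0.69 ± 0.14 or 1.62-fold (adjusted p = 0.021), a call that was lost without pluripotent array 1 (0.63, adjusted p = 0.098), without pluripotent array 2 (0.67, adjusted p = 0.083) and without differentiating array 2 (0.55, adjusted p = 0.069). Its other probe set, 244512_at, did not pass after RA, at 0.42 ± 0.12 (adjusted p = 0.11). HOXB-AS1 and HOXB2 overlap, and how far each probe set reads its own strand was not tested.

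HOXA2, the gene of the second rhombomere and second branchial arch, was at 3.21, 3.30 and 3.37 in pluripotent cells, at 3.39, 3.38 and 3.98 after DOX and at 3.87, 3.97 and 3.62 after RA. The RA arrays lie above the pluripotent ones and overlap the DOX arrays, of which the third is the high one. The change after RA was 0.53 ± 0.15 (95% interval 0.19 to 0.87) and did not pass (adjusted p = 0.13). It passed with the 2 compared conditions alone (adjusted p = 0.047) and with array weights (adjusted p = 0.045), in 2 of 16 alternative settings. HOXD1, another 3′ gene, was at 0.04 (205974_at) and 0.17 (205975_s_at) after RA, and neither passed (adjusted p = 0.92 and 0.51). Together the 6 probe sets of paralog groups 1 and 2 had a median change of 0.39, all 6 were positive, and for 5 of them the RA arrays lay above the pluripotent arrays. Over all probe sets 50.9% were positive, and for 7.88% the RA arrays lay above the pluripotent ones. Among probe sets below the median level these shares were 54.3% and 4.91%. The cut between groups 2 and 3 falls just after the called genes, and the 6 include both called probe sets. These values therefore restate the calls in part and are no separate support for a pattern at the 3′ end.

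The 40 probe sets of paralog groups 3 to 13 had a median change after RA of 0.03, against 0.003 over all probe sets and 0.009 over the olfactory receptor probe sets. Of these 40, 0 were called by limma in either direction, and 2 were higher and 0 lower at an unadjusted p under 0.05. Groups 3 to 5 had a median of 0.10 (9 probe sets), groups 6 to 8 of 0.03 (10 probe sets) and groups 9 to 13 of 0.03 (21 probe sets). In groups 9 to 13, whose genes pattern the trunk end, the limbs and the genital tract, changes ran from −0.15 to 0.16, and the 95% intervals reached from −0.51 to 0.49. The values farthest from 0 outside groups 1 and 2 were those of HOXC5 (0.36, adjusted p = 0.28) and of HOXB6 205365_at (0.27, adjusted p = 0.19), and neither passed. By cluster, the median change was 0.06 in B, 0.08 in C, 0.03 in D and 0.03 for the 3 probe sets of A. Over all 46 probe sets the RA arrays lay wholly above the pluripotent arrays for 9 (19.6%, against 7.88% of all probe sets) and wholly below for 1 (2.17%, against 8.81%).

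**Figure D3:**
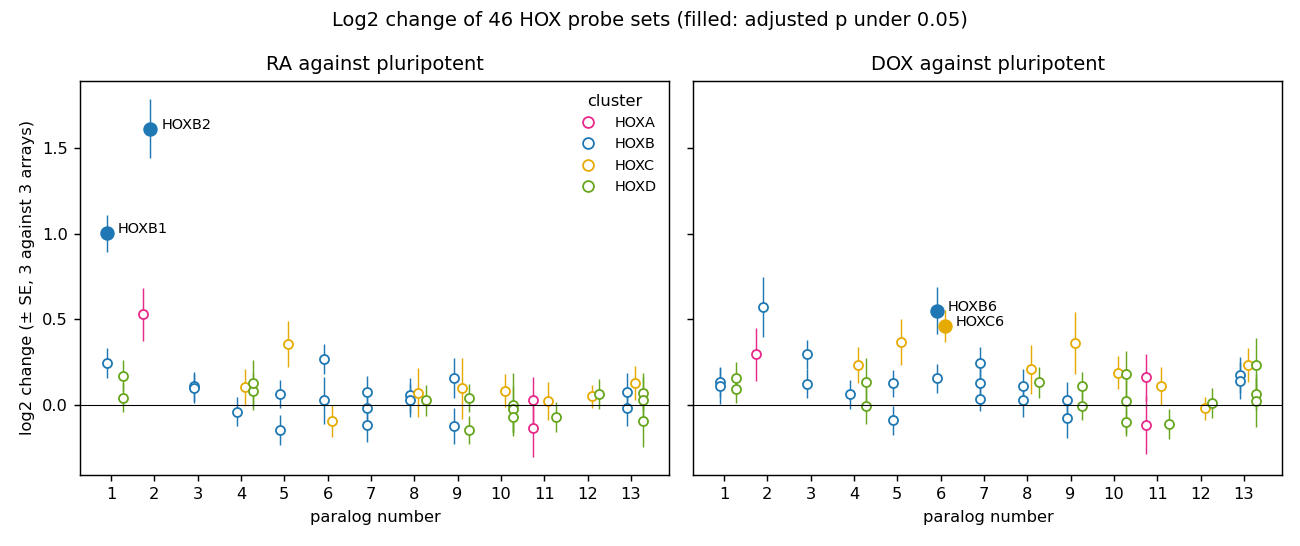
Change in log2 level of each HOX probe set against pluripotent cells, plotted by paralog group, after RA for 2 days and after DOX for 5 h, with lines for the SE, clusters in different colours and called probe sets filled. After RA the called points are HOXB2 (1.61) and HOXB1 (1.00) in groups 2 and 1, and after DOX they are HOXC6 (0.46) and HOXB6 (0.55) in group 6.

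Genes that act on the HOX clusters or with their proteins were read next. Of 88 probe sets of regulators and cofactors (32 genes), RA raised 6 (6.82%, against 1.47% of all probe sets) and lowered 2 (2.27%, against 1.48%), with a median change of 0.03. The list was chosen with earlier results of these data known, so the share raised describes the list and is no test of it. MEIS2, a cofactor of HOX proteins, rose from 5.43 to 9.60 on 207480_s_at (4.18 ± 0.13, adjusted p = 2.9e-08). RARB, the RA receptor gene that RA itself induces, rose from 4.26 to 6.47 on 205080_at (2.21 ± 0.15, adjusted p = 1.3e-05), and another of its probe sets, 208530_s_at, rose by 0.48. CYP26A1, which degrades RA, rose from 10.69 to 12.33 (1.64 ± 0.10, adjusted p = 4.8e-06), ZNF703 rose by 1.38 and the receptor gene RARA by 0.73 on 203749_s_at (adjusted p = 0.031). The call for RARA was lost without pluripotent array 2 (0.78, adjusted p = 0.066) and without differentiating array 1 (0.78, adjusted p = 0.077), 2 (0.66, adjusted p = 0.13) or 3 (0.75, adjusted p = 0.081). The share lowered is near that of all probe sets. The 2 probe sets, chosen for mention after their values were seen, were 202449_s_at of RXRA (−0.42, adjusted p = 0.043) and 204082_at of the cofactor gene PBX3 (−0.37, adjusted p = 0.018), and 0 or 1 regulator probe sets were called lower when any 1 pluripotent or differentiating array was left out.

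Genes beside or inside the clusters were read in the same way, in 52 probe sets of 22 genes. This list too was chosen with earlier results known, and its shares are no test of it. By limma RA raised 6 (11.5%, against 1.47% of all probe sets) and lowered 0 of them (against 1.48%). At an unadjusted p under 0.05 in limma 4 were lower, and the median change of the 52 was 0.06. SKAP2, an adaptor protein gene whose next protein-coding gene belongs to cluster A, accounted for 4 of the 6. Its probe set 225639_at was at 5.23, 5.47 and 5.25 in pluripotent cells, at 5.29, 5.47 and 5.56 after DOX and at 9.05, 9.29 and 9.21 after RA. The RA arrays stand far above the others, a change of 3.87 ± 0.10 or 14.6-fold (adjusted p = 9.0e-09). The probe sets 204362_at, 204361_s_at and 216899_s_at rose by 3.46, 3.29 and 2.92, while 217035_at (0.20) and 241331_at (−0.03) did not pass. The 3 probe sets of cluster A members, HOXA2 and HOXA11-AS, did not pass. The other 2 raised probe sets were 237189_at of HOXB-AS1 and 203517_at of MTX2, a mitochondrial import gene beside cluster D (0.38, adjusted p = 0.015). The long noncoding RNA genes HOTAIR, HOTTIP, HAGLR, HOXA-AS2 and HOXB-AS3 had 0 probe sets called by limma after RA.

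Markers of the cells that could carry a HOX signal were read beside these results. The summed linear signal of 6 measured stem cell genes was 15.00 to 15.05 on the pluripotent arrays, 14.75 to 14.93 after DOX and 15.08 to 15.13 after RA (log2 of the sum). LIN28A and DNMT3B, at 13.35 and 13.14 in pluripotent cells, weigh heavily in that sum. Of the 12 stem cell probe sets limma called 0 higher and 1 lower after RA (8.33%, against 1.48% of all probe sets). The lower one was that of PRDM14 (−1.29, adjusted p = 0.0015), and 2 were higher at an unadjusted p under 0.05. After DOX limma called 0 higher and 4 lower (33.3%, against 4.52% of all), 1 of NANOG and 3 of SOX2, with 0 higher at an unadjusted p under 0.05. Hindbrain and neural progenitor genes, of which 4 of 6 listed were measured, summed to 7.66 to 7.87 on the pluripotent arrays, 7.65 to 7.78 after DOX and 8.15 to 8.27 after RA. Of their 8 probe sets 1 was called higher after RA (12.5%, against 1.47% of all probe sets), that of the homeobox gene IRX3 (0.83). In pluripotent cells 1 of the 4 genes lay above the olfactory receptor reference. Fibroblast and stromal genes, 10 of 10 measured, summed to 12.10 to 12.13 on the pluripotent arrays, 12.36 to 12.48 after RA and 12.62 to 12.75 after DOX. Of their 32 probe sets limma called 4 higher (12.5%, against 1.47% of all probe sets) and 1 lower (3.1%, against 1.48%) after RA. It called 5 higher (15.6%, against 3.2% of all) and 0 lower (against 4.52%) after DOX. Those called higher included COL1A1 in both comparisons and TWIST1 (1.41) after DOX. DCN, LUM, FAP and POSTN lay within the olfactory receptor range in every condition. The part of these genes' cells in the HOX values was not tested.

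The second comparison asks what DNA damage did to HOX genes within hours. DOX raised 2 of 46 HOX probe sets (4.35%, against 3.2% of all probe sets) and lowered 0 (against 4.52%), with 7 higher and 0 lower at an unadjusted p under 0.05 in limma, so the share called higher is near that of all probe sets. The 2 were those of the paralog group 6 genes HOXC6 and HOXB6, which act in the thoracic region.

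HOXC6 (206858_s_at, its only probe set) was at 6.65, 6.60 and 6.81 in pluripotent cells, at 7.26, 6.98 and 7.20 after DOX and at 6.55, 6.67 and 6.56 after RA. The DOX arrays are the highest and the other groups overlap. DOX raised the mean from 6.69 ± 0.11 to 7.15 ± 0.15 (SD, n = 3 arrays each), a change of 0.46 ± 0.09 or 1.38-fold (95% interval 0.26 to 0.67, adjusted p = 0.012), and after RA it was at −0.09 (adjusted p = 0.79). The call after DOX was lost without pluripotent array 1 (0.44, adjusted p = 0.052) and without pluripotent array 2 (0.42, adjusted p = 0.058), and held in 14 of 16 alternative settings.

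HOXB6 (205366_s_at) was at 4.12, 3.89 and 4.22 in pluripotent cells, at 4.88, 4.67 and 4.33 after DOX and at 4.15, 3.96 and 4.19 after RA. The DOX arrays are the highest, the third by little, and all 9 values lie below the olfactory receptor reference. The change after DOX was 0.55 ± 0.14 or 1.46-fold (95% interval 0.25 to 0.85, adjusted p = 0.033), and after RA it was at 0.03 (adjusted p = 0.97). This call held in 9 of 15 alternative settings. It was lost without pluripotent array 1 (0.57, adjusted p = 0.089) or 2 (0.46, adjusted p = 0.14) and without damage array 1 (0.42, adjusted p = 0.10) or 2 (0.53, adjusted p = 0.10). The other HOXB6 probe set, 205365_at, did not pass after DOX, at 0.15 (adjusted p = 0.39). Both called probe sets carry the suffix s_at, which the platform gives to probe sets that can match several transcripts, and of the 46 HOX probe sets 14 carry that suffix or x_at. Leaving these out removes both called probe sets, so it cannot test their calls. Of the HOX probe sets that remain, 0 were called after DOX.

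**Figure D4:**
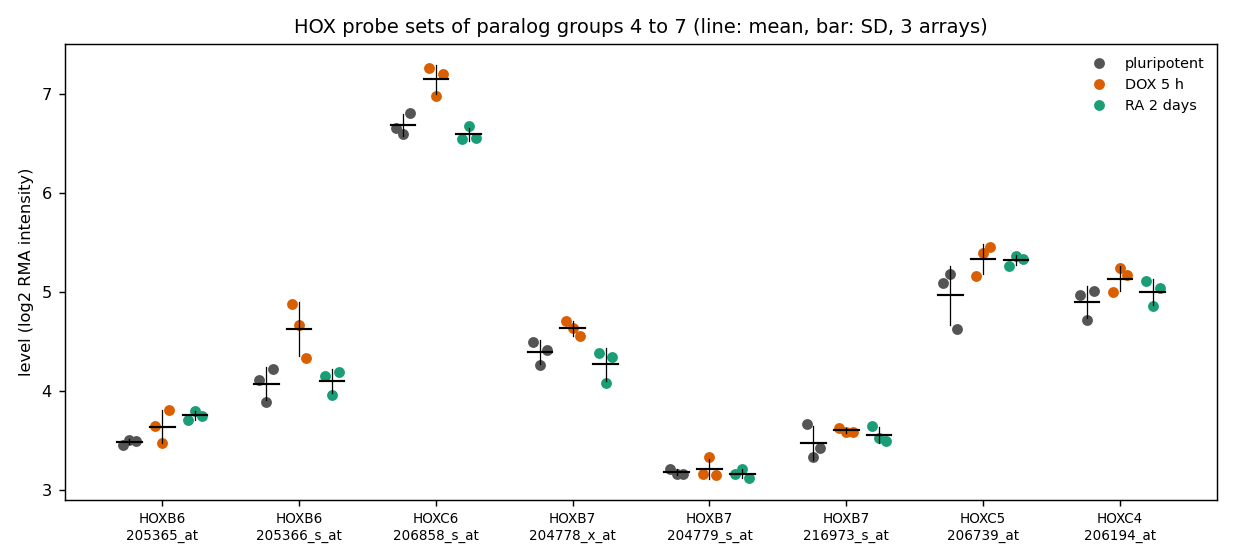
Level on each array (log2 RMA intensity) of the probe sets of HOXB6, HOXC6, HOXB7, HOXC5 and HOXC4, grouped by condition, with lines for the mean and the SD of 3 arrays. The DOX arrays of HOXC6 (6.98 to 7.26) and of HOXB6 205366_s_at (4.33 to 4.88) lie above all pluripotent and RA arrays of the same probe set, and those of HOXB6 205365_at do not.

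HOXB2 was at 0.57 ± 0.17 after DOX (1.49-fold, 95% interval 0.19 to 0.96) and did not pass (adjusted p = 0.079), with every DOX array above every pluripotent array. With the replicate number as a block it passed (0.57 ± 0.13, adjusted p = 0.026), and it was called in 4 of 17 alternative settings. HOXB1 243811_at was at 0.11 (adjusted p = 0.65). HOXB3 228904_at, at 3.32, 3.30 and 3.35 in pluripotent cells and at 3.56, 3.54 and 3.76 after DOX, did not pass, at 0.30 ± 0.08 (adjusted p = 0.060). HOXC5 and HOXC9 were at 0.37 and 0.36 and did not pass either (adjusted p = 0.15 and 0.31).

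The whole set of HOX probe sets leaned upward after DOX, and so did dim probe sets in general. The change was positive for 38 of 46 HOX probe sets, with a median of 0.12, and for 78 of 107 olfactory receptor probe sets, with a median of 0.06, against 0.01 over all probe sets. The DOX arrays lay wholly above the pluripotent arrays for 10 HOX probe sets (21.7%, against 9.69% of all and 13.1% of the olfactory receptor probe sets) and wholly below for 0 (against 11.7% of all). By cluster the median was 0.23 in C, 0.16 in A, 0.12 in B and 0.06 in D. When each array was centred on its olfactory receptor probe sets, a setting chosen after seeing the data, 1 HOX probe set, that of HOXC6, was called higher after DOX. That centring moved the median of all probe sets to −0.09 and the calls over all probe sets from 1745 higher and 2466 lower to 1272 higher and 4472 lower. Over all probe sets, the lower calls after DOX numbered 1279 without pluripotent array 1, 1296 without pluripotent array 2 and 1615 without damage array 3. Among regulators, DOX raised 3 of 88 probe sets and lowered 5, shares of 3.41% and 5.68% that are near those of all probe sets. Among cluster neighbours 0 rose by limma (against 3.2% of all probe sets), with 4 higher at an unadjusted p under 0.05. Limma called 5 neighbour probe sets lower (9.62%, against 4.52% of all).

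The direct comparison of RA with DOX asks whether a HOX gene differed between the treatments. HOX probe sets were higher after RA for 2 of 46 (4.35%, against 7.11% of all probe sets) and lower for 3 (6.52%, against 5.13%), so neither share stands clear of the rate over all probe sets. The higher ones were HOXB2 (1.04 ± 0.17 or 2.06-fold, adjusted p = 0.0025) and HOXB1 243811_at (0.89, adjusted p = 2.6e-04). HOXC6 was lower after RA than after DOX (−0.56 ± 0.09, adjusted p = 0.0026), as was HOXB6 205366_s_at (−0.52, adjusted p = 0.030). The call for HOXB6 held without damage array 3 and was lost without damage array 1 (−0.40, adjusted p = 0.095) or 2 (−0.51, adjusted p = 0.092) and without differentiating array 1 (−0.55, adjusted p = 0.067), 2 (−0.46, adjusted p = 0.11) or 3 (−0.57, adjusted p = 0.053). HOXB7 204778_x_at was at 4.50, 4.26 and 4.42 in pluripotent cells, at 4.70, 4.64 and 4.56 after DOX and at 4.39, 4.08 and 4.34 after RA. Its RA arrays lie below its DOX arrays, with a difference of −0.36 ± 0.10 (adjusted p = 0.036). That call held without differentiating array 1 and was lost when any other of the 6 compared arrays was left out (−0.40 to −0.27), and the other HOXB7 probe sets were at −0.05 each. The values farthest from 0 among the rest, of HOXC9 (−0.27), HOXB9 216417_x_at (0.23) and HOXA2 (0.23), did not pass. HOXA2 passed without damage array 3 (0.43, adjusted p = 0.037). Across the 3 comparisons, 41 of the 46 HOX probe sets were called in none. The matching share over all probe sets was not computed, so this count does not set HOX probe sets apart from others.

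Array quality bears on all of these values. Arrays of a condition correlated at 0.994 to 0.997 over all probe sets, and their medians lay between 4.62 and 4.68. The third pluripotent array had a limma array weight of 0.578, against 1.44 and 1.47 for the other pluripotent arrays. Without it, HOXB1 and HOXB2 were again the HOX probe sets called higher after RA, and HOXC6 and HOXB6 those called higher after DOX. With 3 arrays a condition, precision is limited throughout.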

How the data were processed

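For 9 arrays the authors deposited log2 intensities of probe sets, made with RMA and the package affy per the submitters' processing notes (versions not given in the sources used here). In RMA the background is corrected, arrays are normalised by quantiles and the probes of a set are summarised. The log2 scale was read from the values (2.36 to 14.8). Of 54675 probe sets 62 controls were left out. Of the rest 41091 had 1 annotated gene, 1801 several and 11721 none, and 41037 matched RefSeq (GRCh38.p14) by Entrez identifier. Windows and gene order come from RefSeq.

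Arrays were grouped by their labels. A linear model with 3 condition means was fitted with limma 3.58.1 in R 4.3.3 by lmFit and eBayes (degrees of freedom 6 residual, 4.64 prior). Low values were not filtered, and the fit was tested on simulated data. Probe sets are the unit because the brightest probe set of a silent gene reads mostly background. HOX probe sets called in any comparison, or of paralog groups 1 to 4 and above the olfactory receptor reference, are given on every array. Of the others, the 3 highest levels and the 3 largest changes per comparison are named, and of the regulator and neighbour lists the 5 called probe sets with the largest changes after RA. Members and lists were chosen with earlier results of these data known. Alternatives were other choices of probe set, a filter on dim probe sets, other estimates of spread, fewer arrays, further normalization, array weights and the replicate number as a block. Arrays share replicate numbers, and the labels do not say what a number marks. Deviations from the condition means correlated between same-numbered pluripotent and damaged arrays at 0.10 to 0.17, over 0.1 in 3 of 3 pairs. Pluripotent and differentiating arrays (−0.05 to 0.28) and damaged and differentiating arrays (−0.07 to 0.10) did not meet this limit in every pair. Pairs with different numbers were at −0.28 to 0.09. The numbers may pair the pluripotent and damaged arrays, but 3 correlations of deviations that sum to 0 within each condition cannot establish it. The main model leaves such pairing out, and results with the replicate number as a block are given beside it.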

Additional observations from a re-analysis of the deposited data

How the results depend on the processing

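HOXB2 kept its call after RA in all 17 alternatives and HOXB1 243811_at in 15 of 16. Over the 55 single values that were followed, 814 results of alternatives kept their direction and side of the threshold, 36 lost the call, 11 gained it and 27 changed sign. Of the 27, 26 were called neither before nor after. The other is HOXB6 205365_at between RA and DOX, which turned from 0.11 to −0.52 (adjusted p = 0.017) with the brightest probe set per gene, because another probe set then stands for the gene, and was at −0.21 with the mean of probe sets. With the brightest probe set HOXB9 was at −0.13 after RA, 0.029 after DOX and −0.15 between RA and DOX, and with the mean of probe sets HOXB5 was at −0.042 after RA. Between RA and DOX, median centring put HOXB3 208414_s_at at 0.0021 and HOXC5 at 0.0039, and olfactory receptor centring put them at 0.055 and 0.057 and HOXB5 205601_s_at at 0.0088. After RA, that centring put HOXB6 205366_s_at at −0.0079 and HOXC11 at −0.014. With 1 array left out, values after RA ran from −0.043 to 0.14 for HOXC11, from −0.068 to 0.097 for HOXB6 205366_s_at and from −0.033 to 0.22 for HOXC9. HOXB9 216417_x_at ran from −0.16 to 0.075 after DOX, and between RA and DOX HOXC5 ran from −0.097 to 0.046 and HOXB3 208414_s_at from −0.037 to 0.020. The HOX probe sets called higher after RA numbered 1 with the brightest probe set per gene and 1 among probe sets above the median level, and 3 with the 2 compared conditions alone or with array weights, HOXA2 being added. Those higher in RA than in DOX numbered 1 with the brightest probe set per gene and 1 among probe sets above the median level. HOXB1 and HOXB2 were the ones higher in RA than in DOX with the 2 compared conditions alone and with array weights. HOX calls higher after DOX numbered 4 with the mean of a gene's probe sets, 0 without x_at and s_at probe sets, 1 above the median level, 1 with olfactory receptor centring and 0 to 2 when 1 array was left out. HOX calls lower in RA than in DOX numbered 1 with the mean of probe sets, 0 without x_at and s_at probe sets, 1 above the median level, 1 with olfactory receptor centring and 1 to 2 when 1 array was left out, from 3 in the report. Every HOX probe set called higher after DOX, or lower in RA than in DOX, carries x_at or s_at. Leaving those suffixes out removes these probe sets and does not test their calls. For RA, higher neighbour calls numbered 2 with the brightest probe set and 3 with the mean, and lower neighbour calls 1 above the median level, 1 with a trended and robust spread, 2 with array weights and 0 to 1 when 1 array was left out. Higher regulator calls numbered 3 without x_at and s_at probe sets. Lower regulator calls numbered 1 without them, 1 with the 2 compared conditions alone, 1 with the replicate block and 0 to 1 when 1 array was left out. Probe sets at these levels are dim, which limits what change could be seen. The cause of these shifts was not tested, apart from fewer or other probe sets or arrays entering a setting. Olfactory receptor centring also moved the split between RA and DOX over all probe sets from 3882 higher and 2802 lower to 4866 and 1961.

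With the replicate number as a block, 858 probe sets were higher and 824 lower after RA, 2 HOX probe sets were higher after RA and 3 after DOX, HOXB2 being the added one (0.57, adjusted p = 0.026). Apart from this and the regulator count above, the block changed no call followed here. Of pairs with different numbers the correlations were −0.28 to 0.09.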
